A study of Mus musculus with 18 samples.

Results

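Genes that mark endothelial cells and pericytes, the cell types of small blood vessels, were followed through HM-1 tumors, with HM-1 and ID8 cells in culture as the background without vessels. The set held 26 endothelial genes and 8 pericyte genes, listed by mouse symbol as known markers. These genes were chosen with earlier results of these data known. Each of the 34 symbols matched 1 row among the 54752 genes of the count table. HM-1 and ID8 are mouse ovarian cancer cell lines, labelled with the strains B6C3F1 and C57BL6. The groups were tumors from HM-1 cells labelled Cd276KO, tumors from HM-1 control cells, cultures of HM-1 cells labelled Cd276KO and of HM-1 controls, and cultures of ID8 cells labelled Cd276KO and of ID8 controls, with 3 libraries each. Tumors had grown in the skin of B6C3F1 mice and were taken on day 10. Cd276 encodes B7-H3, an immune checkpoint protein related to the B7 ligands. The label Cd276KO refers to the cancer cells, and the labels state no alteration of the host mice. The number of clones, cultures and mice per group is not given, and p-values therefore speak only of the variation among these libraries.

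Endothelial cells line blood vessels, and pericytes wrap the outside of capillaries. Vascular endothelial growth factor acts on endothelial cells through the receptor encoded by Kdr, angiopoietins act through Tek, and endothelial PDGF draws pericytes through the receptor encoded by Pdgfrb. A transplanted tumor takes its vessels from the host. In RNA from a whole tumor, fewer vessel cells and less RNA per vessel cell cannot be told apart.

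Total counts ranged from 17349082 to 30959773 per library. Control tumor 3 stood apart from control tumors 1 and 2, with chi-square values averaging 149 and 90.5 over genes; control tumors 1 and 2 differed by 45.4. HM-1 control culture 1 likewise stood apart from cultures 2 and 3 of its group (71.3 and 69.9, whereas cultures 2 and 3 differed by 1.62). Levels are CPM, counts scaled to a library total of 1000000. Cd276 had 73.2, 97.2 and 89.5 CPM in tumors labelled Cd276KO, against 142, 107 and 116 CPM in control tumors. Its log2 fold change was -0.45 (SE 0.14, edgeR adjusted p = 0.105), and it was still present in every library, so the counts of Cd276 did not check the tumor label. In HM-1 cultures Cd276 fell, at 47.2, 47.7 and 44.8 CPM in cultures labelled Cd276KO against 74.2, 93.5 and 91.5 CPM in control cultures (log2 fold change -0.85, SE 0.10, edgeR adjusted p = 0.00146). In ID8 cultures the log2 fold change of Cd276 was -0.04 (SE 0.08, edgeR adjusted p = 0.692). Groups are therefore called by their labels.

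Most vessel genes were far above the level of HM-1 cells in culture, Flt1, Apln and Angpt2 being the ones that cultured HM-1 cells also transcribed at a sizeable share of the tumor level. A gene was called when its edgeR quasi-likelihood p, with Benjamini-Hochberg adjustment over all genes tested, was under 0.05. Of the 34 vessel genes, 32 were higher and 1, Apln, was lower in tumors labelled Cd276KO than in cultures labelled Cd276KO. Of all genes tested there, 41.2% were called higher and 34.5% lower. In control tumors against control cultures, 33 were higher, with Apln the one not called (edgeR; log2 fold change 0.31, SE 0.26, adjusted p = 0.375). Of all genes tested there, 25.3% were called higher and 16.6% lower. These were 3689 and 2418 genes, and with upper-quartile scaling 4165 and 1701.

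Pericyte genes other than Des stayed under 1 CPM in every HM-1 culture. Rgs5, a regulator of G protein signalling made by pericytes, had 259, 406 and 338 CPM in tumors labelled Cd276KO and 0.143, 0.0512 and 0.103 CPM in the cultures of that label. It had 235, 177 and 100.4 CPM in control tumors and no count in control cultures, at least 3922-fold higher taking 3 counts over the whole group as the floor. Every tumor was thus above every culture for Rgs5 by orders of magnitude. S1pr1, the receptor for the blood lipid sphingosine-1-phosphate, had no count in any of the HM-1 cultures and was at least 239-fold higher in tumors labelled Cd276KO and at least 384-fold higher in control tumors. Kcnj8, a potassium channel subunit gene of pericytes, had no count in cultures labelled Cd276KO and was at least 733-fold higher in tumors labelled Cd276KO. Cdh5, the cadherin of endothelial junctions, was in culture at 0.216% of its tumor level in libraries labelled Cd276KO and at 0.939% in controls. These floors and shares come from counts summed over each group and leave out the variation between libraries. Lower 95% limits from counting were 3189-fold for Rgs5 in control tumors and 595-fold for Kcnj8. For S1pr1 they were 194-fold in tumors labelled Cd276KO and 311-fold in control tumors. The Cdh5 shares rest on 7 culture counts with the label and 34 in controls. Reads carried no molecular identifiers.

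A few vessel genes were transcribed by HM-1 cells themselves. Flt1, the VEGF receptor that also serves as a decoy, had 107, 110.2 and 113 CPM in cultures labelled Cd276KO and 49.6, 84.9 and 86.7 CPM in control cultures. The culture level came to 91% of the tumor level in libraries labelled Cd276KO and to 57.3% in controls, and in controls the tumor level was called higher (edgeR; log2 fold change 0.74, SE 0.22, adjusted p = 0.0316). That call was lost without any one of control cultures 1, 2 or 3 or control tumors 2 or 3 (edgeR adjusted p 0.0516 to 0.110). In libraries labelled Cd276KO the log2 fold change of Flt1 was -0.01 (SE 0.05, edgeR adjusted p = 0.936), and the difference between the 2 values did not pass the interaction test (-0.74, SE 0.25, edgeR adjusted p = 0.166). Apln, the gene of the secreted peptide apelin, reached in culture 169% of its tumor level in libraries labelled Cd276KO and 75.6% in controls. Angpt2, the angiopoietin that destabilises vessels, reached 27.6% in libraries labelled Cd276KO and 31.8% in controls. Egfl7, a secreted endothelial protein gene, reached 12.6% and 7.48%. It shares exon bases with Agpat2 on the opposite strand and with Gm20532 and Mir126a on its own strand. Nos3, the endothelial nitric oxide synthase gene, reached 7.33% and 8.19%, and it overlaps Atg9b on the opposite strand. Without a stated strand setting, reads from bases shared with a gene on the opposite strand cannot be told apart. Eng has the same limit with Fpgs. The proteoglycan gene Esm1 reached 11.1% in libraries labelled Cd276KO and 5.76% in controls, on 17 and 9 culture counts, under 1 CPM in every culture.

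**Figure D1:**
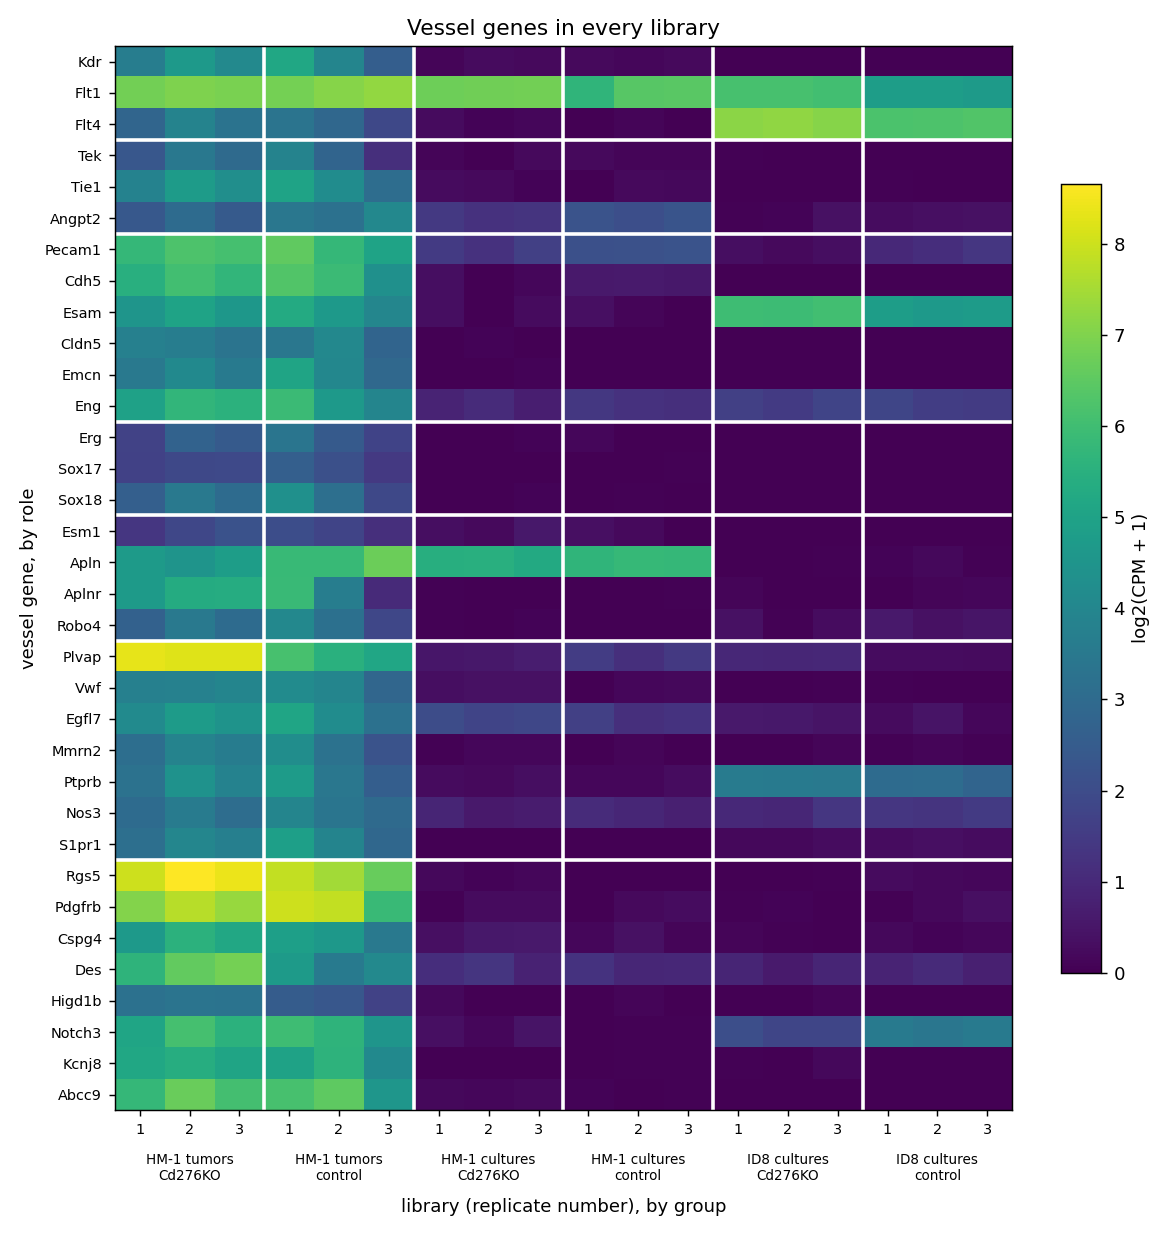
Level of each of the 34 vessel genes in every library, as log2(CPM + 1), with genes in rows by role and libraries in columns by group. Most rows are bright in the 6 tumors and dark in cultures. Flt1 and Apln are also bright in HM-1 cultures, and Flt1, Flt4 and Esam in ID8 cultures.

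Levels of different genes were compared per length, as TPM, counts divided by the summed exon length of the gene and scaled to 1000000 per library. Over the 6 tumors Plvap was the highest at 293 TPM, with a range of 49.8 to 510 TPM. That rank came from the tumors labelled Cd276KO, since in control tumors Plvap averaged 78.5 TPM, below Rgs5 at 119.9 TPM and Pdgfrb at 107 TPM. Rgs5 followed at 179.9 TPM (64.6 to 298 TPM) and Pdgfrb at 103 TPM (30.6 to 153 TPM). The lowest were the von Willebrand factor gene Vwf at 2.61 TPM and the transcription factor gene Sox17 at 2.01 TPM. The ranges of neighbours in this order overlapped, so ranks next to each other did not differ beyond their spread.

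Between tumors labelled Cd276KO and control tumors, the largest difference lay in Plvap, which encodes a protein of the diaphragms that span endothelial fenestrae and caveolae. Plvap had 324, 303 and 306 CPM in tumors labelled Cd276KO, against 69.4, 43.8 and 33.8 CPM in control tumors. The lowest tumor labelled Cd276KO was far above the highest control tumor, and the 3 tumors of that label lay close together. Plvap rose, with a mean of 311 ± 11.5 CPM against 49.0 ± 18.4 CPM (SD, n = 3 each) and an edgeR log2 fold change of 2.72 (SE 0.25; adjusted p = 0.0149). Per length the means were 508 ± 2.25 TPM in tumors labelled Cd276KO and 78.5 ± 33.0 TPM in control tumors. Plvap (ENSMUSG00000034845) lies on GRCm38 chromosome 8 from 71497765 to 71511752 on the minus strand, and no other annotated gene shares its exon bases. Leaving out 1 control tumor kept the call (edgeR adjusted p 0.00243 to 0.0399). Leaving out 1 tumor labelled Cd276KO ended it, with log2 fold changes of 2.66 to 2.75 and edgeR adjusted p of 0.0762 to 0.137, in fits where 0 or 1 of all genes tested were called.

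Plvap was then set against 2 other endothelial genes. Its level was 6.03, 4.07 and 4.52 times that of Pecam1, the platelet endothelial adhesion molecule gene, in tumors labelled Cd276KO. In control tumors it was 0.747, 0.815 and 1.07 times that of Pecam1. Set against Cdh5, the ratios of CPM were 7.49, 4.68 and 6.0 in tumors labelled Cd276KO and 0.893, 0.747 and 1.76 in control tumors. Neither ratio overlapped between the groups. Both ratios hold the Plvap values already tested, so their non-overlap is no separate result. In HM-1 cultures Plvap was lower with the label, at a low level, while in ID8 cultures it was higher (log2 fold change 2.22, SE 0.35, edgeR adjusted p = 9.69e-06). Plvap had 0.430, 0.461 and 0.619 CPM in HM-1 cultures labelled Cd276KO, against 1.93, 1.26 and 1.69 CPM in control cultures. The difference between the tumor effect and the culture effect of the label was 4.32 on the log2 scale (SE 0.45, adjusted p = 0.000516, edgeR interaction test over 12 libraries). Plvap was the 1 vessel gene of 34 that edgeR called in that test, where 1.72% of all genes tested were called higher and 1.12% lower. It stayed called under every alternative tried, with log2 values of 4.11 to 4.69. Cultures hold no vessels, and whether the tumor and culture effects concern the same cells was not tested.

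**Figure D2:**
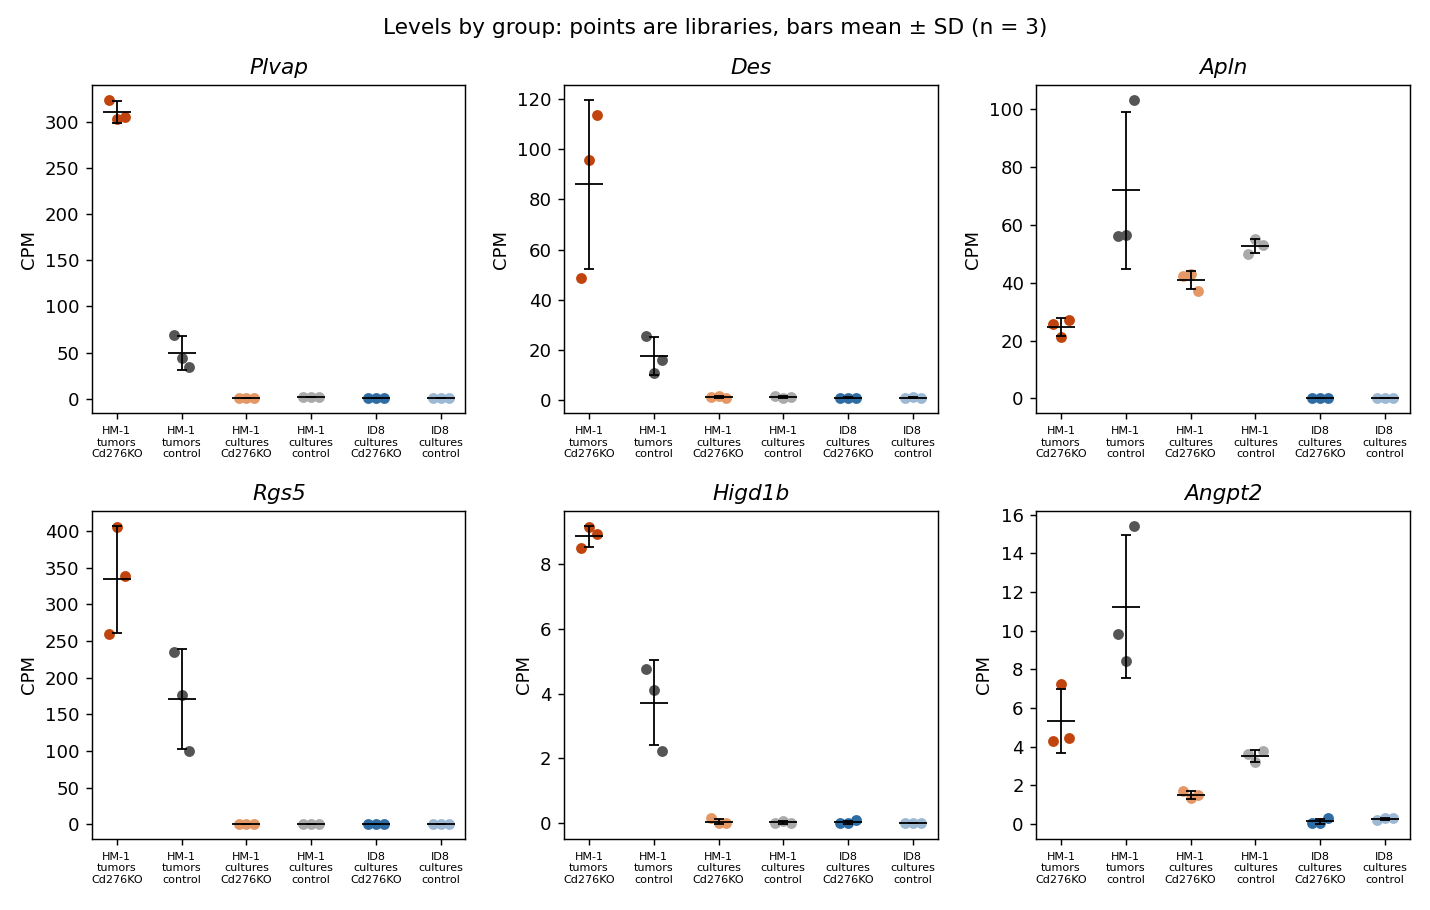
CPM of the 6 vessel genes whose tumor groups did not overlap, by group, with a point for each library and bars for mean ± SD (n = 3). Plvap lies between 303 and 324 CPM in tumors labelled Cd276KO and between 33.8 and 69.4 CPM in control tumors, and Apln and Angpt2 are lower in tumors labelled Cd276KO.

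Of the 34 vessel genes, 2 were called higher in tumors labelled Cd276KO than in control tumors, Plvap and Des, and 1 was called lower, Apln. Of all 15345 genes tested, 2.2% were called higher and 3.18% lower. The groups did not overlap for 4 vessel genes that were higher (11.8%) and 2 that were lower (5.88%), against 14.2% and 20.6% of all genes tested, so non-overlap was no more frequent among vessel genes than among all genes. The median log2 fold change was 0.12 over the 34 genes and -0.03 over all genes. All 3 calls ended when any 1 tumor labelled Cd276KO was left out. Without control tumor 3 the median of the 34 genes was -0.19, and without control tumor 1 it was 0.51.

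**Figure D3:**
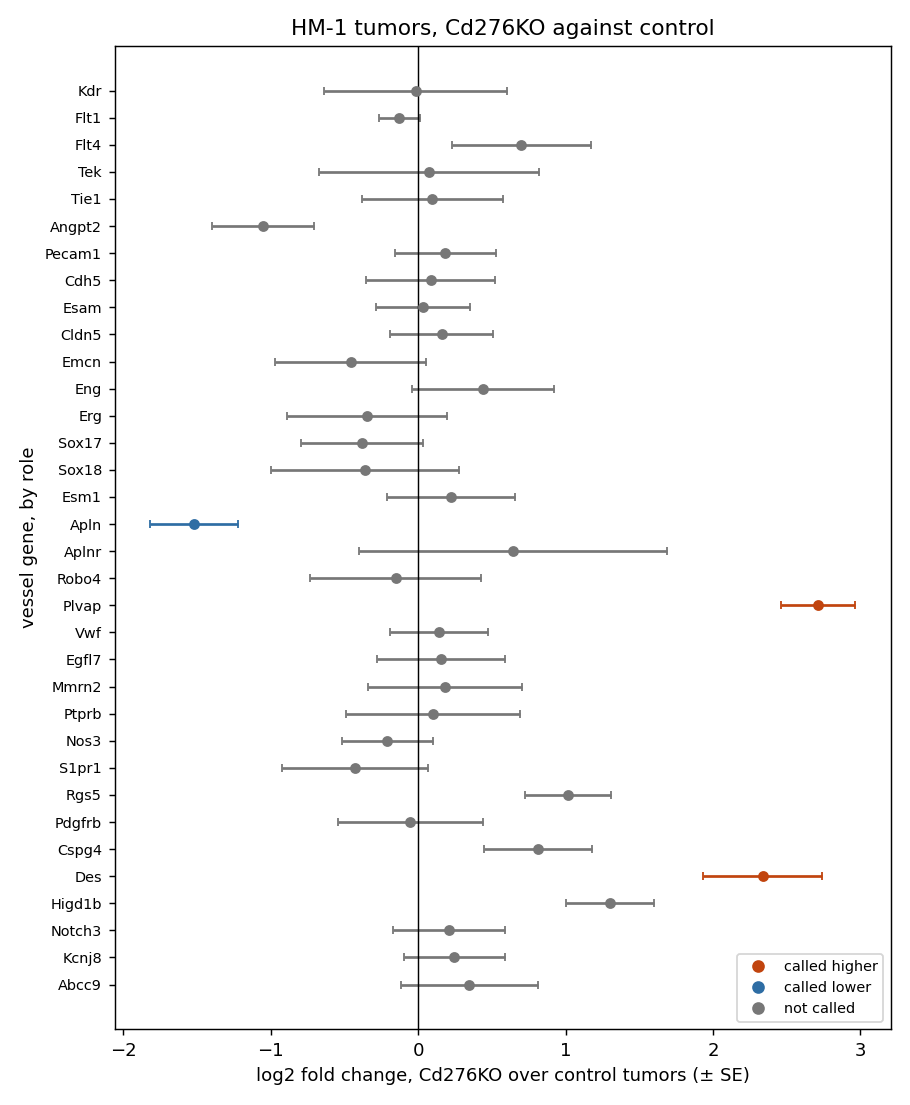
Log2 fold change of each vessel gene, tumors labelled Cd276KO over control tumors, with bars for ± SE from edgeR. Plvap (2.72) and Des (2.34) were called higher and Apln (-1.52) lower, and the other genes did not pass the test.

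Pericyte genes had mostly positive differences, 7 of 8 above 0 with a median log2 fold change of 0.58, but only Des passed the test. Control tumor 3 was the lowest of the 6 tumors for 7 of the 8 genes, and for 33.8% of all genes tested. Des encodes desmin, an intermediate filament protein of pericytes and of all muscle. It had 48.5, 95.7 and 114 CPM in tumors labelled Cd276KO, against 25.7, 10.6 and 15.7 CPM in control tumors. The groups did not overlap, and Des rose by 2.34 on the log2 scale (SE 0.41, edgeR adjusted p = 0.0335). Striated muscle genes moved with it: the summed CPM of 12 striated muscle markers was 147, 995 and 1061 in tumors labelled Cd276KO, against 163, 2.81 and 4.64 in control tumors. All 12 had a positive log2 fold change, with a median of 3.33, and 1 of them, Myh2, was called. In tumor 1 labelled Cd276KO and control tumor 1, whose muscle sums were close at 147 and 163 CPM, Des was at 48.5 and 25.7 CPM. The part of muscle RNA in the Des result was not tested. The Des call also ended without control tumor 2 or 3 (edgeR adjusted p = 0.0626 and 0.0651) and with no filter on low counts (edgeR adjusted p = 0.0670).

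Rgs5 and Higd1b, a mitochondrial protein gene used as a pericyte marker, were higher in each tumor labelled Cd276KO than in each control tumor without passing the main test. Of all genes tested, 14.2% were likewise higher without overlap. The log2 fold change of Rgs5 was 1.01 (SE 0.29, edgeR adjusted p = 0.0918). DESeq2 and limma voom called it, with adjusted p of 0.0109 and 0.0101. These methods called 938 and 1443 of all genes higher, against 338 in the main test. Higd1b had 8.51, 9.15 and 8.93 CPM in tumors labelled Cd276KO, against 4.78, 4.13 and 2.24 CPM in control tumors. Its log2 fold change was 1.30 (SE 0.30, edgeR adjusted p = 0.0556), and it was called by DESeq2 (adjusted p = 0.000972) and limma voom (adjusted p = 0.00582). Pdgfrb, whose product draws pericytes to vessels, had 132, 214 and 158 CPM in tumors labelled Cd276KO, against 256, 231 and 57.3 CPM in control tumors (log2 fold change -0.05, SE 0.49, edgeR adjusted p = 0.959). The CPM of Rgs5 was 1.96, 1.89 and 2.14 times that of Pdgfrb in tumors labelled Cd276KO. In control tumors it was 0.918, 0.767 and 1.75 times that of Pdgfrb. This ratio holds the Rgs5 values already tested, so its non-overlap is no separate result. Pdgfrb is also a gene of fibroblasts, whose 10 markers summed to 3652, 6483 and 5328 CPM in tumors labelled Cd276KO and to 17996, 5937 and 537 CPM in control tumors. Control tumor 3 was the lowest for both Pdgfrb and the fibroblast sum.

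The other pericyte genes overlapped between the groups. Cspg4, the gene of the proteoglycan NG2, had 24.3, 46.7 and 36.1 CPM in tumors labelled Cd276KO, against 28.5, 23.9 and 10.5 CPM in control tumors (log2 fold change 0.81, SE 0.37, edgeR adjusted p = 0.228). Notch3, a Notch receptor of mural cells, had a log2 fold change of 0.21 (SE 0.38). Kcnj8 and Abcc9 encode the pore and the sulfonylurea receptor subunit of one potassium channel and are neighbours on GRCm38 chromosome 6, from 142564837 to 142571614 and from 142587862 to 142702315, both on the minus strand. Their log2 fold changes were 0.25 (SE 0.34) and 0.35 (SE 0.47), and neither was called (edgeR adjusted p = 0.694 and 0.686).

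Apln was the vessel gene that fell. It encodes a peptide secreted by sprouting endothelium and, here, was also transcribed by cultured HM-1 cells. Apln had 25.7, 21.2 and 27.1 CPM in tumors labelled Cd276KO, against 56.3, 56.5 and 103 CPM in control tumors. Every tumor labelled Cd276KO was below every control tumor, and Apln fell by 1.52 on the log2 scale (SE 0.30, edgeR adjusted p = 0.0398). Without control tumor 3, the highest, the value was -1.12 and was still called (edgeR adjusted p = 0.00707), whereas without control tumor 1 or 2 the call was lost (0.0504 and 0.0576). Apln fell in HM-1 cultures too, by 0.33 on the log2 scale (SE 0.09, edgeR adjusted p = 0.0292), a call lost without any one culture other than control culture 1 (edgeR adjusted p 0.0748 to 0.131). The difference between the tumor and the culture effect was -1.18 (SE 0.29, adjusted p = 0.0575, edgeR interaction test) and was called in the fit of 18 libraries, by DESeq2 and by limma voom (adjusted p 0.00228 to 0.0321). In that order, these fits called 337, 378 and 1394 of all genes lower, against 175 in the main interaction test. Aplnr, which encodes the apelin receptor of sprouting and venous endothelium, had 25.6, 39.3 and 39.9 CPM in tumors labelled Cd276KO, against 57.1, 11.9 and 1.04 CPM in control tumors. The control tumors spread 54.8-fold, the widest of all 34 genes, and the log2 fold change of 0.64 had an SE of 1.05 (edgeR adjusted p = 0.743). The log2 fold change of Angpt2 had the same sign as that of Apln. Angpt2 had 4.28, 7.24 and 4.44 CPM in tumors labelled Cd276KO, against 9.83, 8.44 and 15.4 CPM in control tumors (log2 fold change -1.05, SE 0.34, edgeR adjusted p = 0.121). It was called by DESeq2 (adjusted p = 0.0300) and limma voom (0.0316). These methods called 1332 and 1734 of all genes lower, against 488 in the main test.

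The remaining endothelial genes overlapped between the groups, and their control tumors differed more than the groups did. Among VEGF receptors, Kdr had 11.6, 24.1 and 15.8 CPM in tumors labelled Cd276KO, against 34.8, 14.3 and 5.00 CPM in control tumors (log2 fold change -0.02, SE 0.62). Flt1 had 113, 127 and 121 CPM in tumors labelled Cd276KO and 115, 137 and 151 CPM in control tumors (-0.13, SE 0.14). Flt4, the receptor of lymphatic and sprouting endothelium, had 6.18, 13.8 and 8.76 CPM in tumors labelled Cd276KO and 9.15, 6.47 and 2.66 CPM in control tumors (0.70, SE 0.47). None of the 3 receptors passed the test, and Kdr ranged more widely in the control tumors than in the tumors labelled Cd276KO. Tie1, an orphan receptor that modulates angiopoietin signalling, had 13.3, 26.2 and 18.6 CPM in tumors labelled Cd276KO, against 31.4, 17.4 and 7.51 CPM in control tumors (0.09, SE 0.48). Tek, the angiopoietin receptor gene, had a log2 fold change of 0.07 (SE 0.75).

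Junction and adhesion genes showed the same picture. Pecam1 had 53.7, 74.5 and 67.6 CPM in tumors labelled Cd276KO, against 93.0, 53.7 and 31.7 CPM in control tumors (log2 fold change 0.18, SE 0.34). Cdh5 had 43.3, 64.8 and 51.0 CPM in tumors labelled Cd276KO, against 77.8, 58.6 and 19.2 CPM in control tumors (0.09, SE 0.44). Emcn, a sialomucin gene of capillaries and veins, had 10.3, 16.5 and 10.8 CPM in tumors labelled Cd276KO, against 32.1, 15.1 and 6.62 CPM in control tumors (-0.46, SE 0.51). In all 3, the control group held both the highest and the lowest of the 6 tumors. Esam and Cldn5, of endothelial junctions, had log2 fold changes of 0.03 and 0.16, and Eng, a TGF-beta co-receptor gene, had 0.44 (SE 0.48). The endothelial transcription factor genes Erg, Sox17 and Sox18 had negative values of -0.35, -0.38 and -0.36, with SE of 0.54, 0.41 and 0.64. Sox18 had 5.17, 10.2 and 7.09 CPM in tumors labelled Cd276KO, against 19.2, 8.07 and 2.66 CPM in control tumors. Esm1, a tip cell proteoglycan gene, and Robo4, an endothelial guidance receptor gene, had 0.22 (SE 0.44) and -0.15 (SE 0.58). The last 6 endothelial genes, Vwf, Egfl7, Mmrn2, Ptprb, Nos3 and S1pr1, lay between -0.43 and 0.18.

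Endothelial genes ranked the tumors alike. For 18 endothelial genes that stayed under 1 CPM in every HM-1 culture, control tumor 3 was the lowest of the 6 tumors in 17, and control tumor 1 was the highest in 15. Over all genes tested, control tumor 3 was the lowest in 33.8% and control tumor 1 the highest in 22.9%. The summed level of these 18 genes was 203, 331 and 261 CPM in tumors labelled Cd276KO, against 446, 243 and 95.6 CPM in control tumors, so the groups overlapped. The 8 pericyte genes summed to 2.93, 2.97 and 3.06 times that endothelial sum in tumors labelled Cd276KO. In control tumors they summed to 1.59, 2.60 and 2.58 times that sum. The pericyte sum holds Rgs5, Des and Higd1b, already given as higher without overlap, so this ratio is no separate result. The coefficient of variation was larger in control tumors than in tumors labelled Cd276KO for all 34 vessel genes, and for 77.7% of all genes tested. Its median over the 34 genes was 26.3% in tumors labelled Cd276KO and 52.9% in control tumors.

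**Figure D4:**
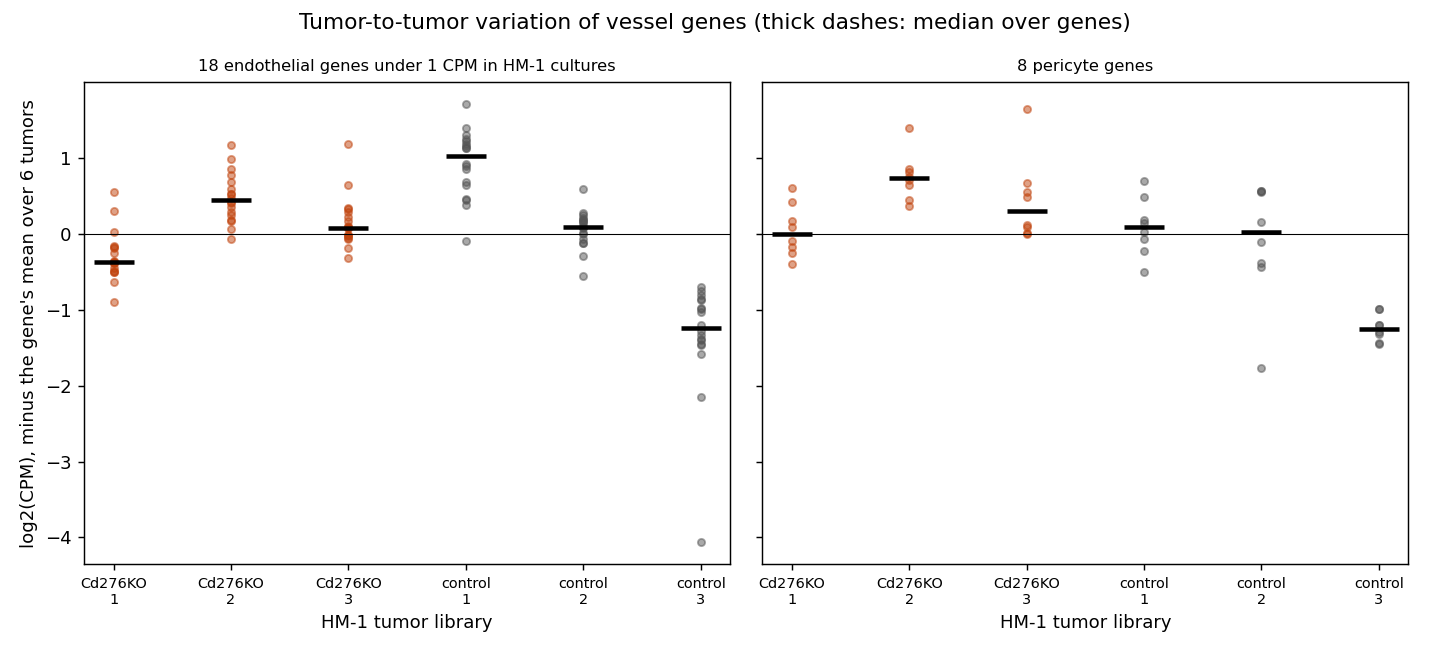
Log2(CPM) minus the mean of the gene over the 6 HM-1 tumors, for 18 endothelial genes (left) and 8 pericyte genes (right), with a point for each gene and a thick dash for the median over genes. Control tumor 3 is at the bottom in both panels, being the lowest of 6 for 17 endothelial and 7 pericyte genes, and control tumor 1 is at the top on the left.

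Promoter sequences were set beside these levels to show the start regions of Rgs5, Des and Apln, whose tumor groups did not overlap. Those of Tie1, Emcn and Flt1 were added as further examples, without a stated rule of choice. RefSeq promoters of build GRCm38.p6 were at hand for 19 of the 34 genes, each running from 250 bases before to 50 bases after the RefSeq start and given on the strand of the gene. For Des, Tie1 and Emcn this start is not the GENCODE start of the gene, and for Des the bases shortly after it were found in no GENCODE transcript. Capitals mark AGGAAG, a form of the site of ETS factors such as the product of Erg, and CAGCTG, an E-box form, on either strand. Rgs5 is shown from chr1:169655251-169655550 (plus strand), Des from chr1:75360042-75360341 (plus), Apln from chrX:48034804-48035103 (minus), Tie1 from chr4:118489800-118490099 (minus), Emcn from chr3:137340828-137341127 (plus) and Flt1 from chr5:147725962-147726261 (minus).
Rgs5: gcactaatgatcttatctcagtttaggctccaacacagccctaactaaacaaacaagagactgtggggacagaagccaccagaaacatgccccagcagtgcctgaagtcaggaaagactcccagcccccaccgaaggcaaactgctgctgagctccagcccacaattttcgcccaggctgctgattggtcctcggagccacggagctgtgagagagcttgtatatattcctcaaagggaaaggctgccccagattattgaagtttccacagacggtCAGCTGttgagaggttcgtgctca
Des: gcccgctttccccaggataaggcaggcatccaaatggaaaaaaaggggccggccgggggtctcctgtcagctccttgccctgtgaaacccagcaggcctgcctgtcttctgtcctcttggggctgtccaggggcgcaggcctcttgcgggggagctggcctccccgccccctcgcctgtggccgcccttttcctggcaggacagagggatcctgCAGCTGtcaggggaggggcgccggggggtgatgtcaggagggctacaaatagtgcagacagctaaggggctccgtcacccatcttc
Apln: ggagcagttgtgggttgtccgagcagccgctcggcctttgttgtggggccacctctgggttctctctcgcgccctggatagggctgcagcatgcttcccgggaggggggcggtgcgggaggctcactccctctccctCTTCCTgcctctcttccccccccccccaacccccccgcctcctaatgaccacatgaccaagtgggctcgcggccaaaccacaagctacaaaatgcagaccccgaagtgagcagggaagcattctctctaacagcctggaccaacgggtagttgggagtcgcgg
Tie1: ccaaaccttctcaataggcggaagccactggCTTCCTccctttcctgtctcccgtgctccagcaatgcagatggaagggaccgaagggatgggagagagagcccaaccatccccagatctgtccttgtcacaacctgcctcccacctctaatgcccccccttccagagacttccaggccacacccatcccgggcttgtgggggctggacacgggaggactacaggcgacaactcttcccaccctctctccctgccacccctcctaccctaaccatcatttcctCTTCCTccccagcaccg
Emcn: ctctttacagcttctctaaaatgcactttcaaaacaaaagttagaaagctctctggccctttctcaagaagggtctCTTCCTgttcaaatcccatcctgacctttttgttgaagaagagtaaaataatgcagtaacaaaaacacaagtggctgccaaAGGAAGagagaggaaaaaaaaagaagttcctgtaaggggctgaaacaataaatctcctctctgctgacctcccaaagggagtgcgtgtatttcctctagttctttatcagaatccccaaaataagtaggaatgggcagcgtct
Flt1: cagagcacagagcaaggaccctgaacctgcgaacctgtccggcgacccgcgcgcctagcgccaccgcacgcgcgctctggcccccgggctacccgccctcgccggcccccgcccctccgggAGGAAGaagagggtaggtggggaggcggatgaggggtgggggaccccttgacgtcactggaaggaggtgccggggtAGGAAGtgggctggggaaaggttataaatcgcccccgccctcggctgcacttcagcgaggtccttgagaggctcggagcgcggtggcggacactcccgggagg
The Rgs5 and Des promoters each held 1 CAGCTG and no AGGAAG, Apln held 1 AGGAAG, and Tie1, Emcn and Flt1 held 2 each, with no bases shared between the 2 motifs. Of the 19 genes, 8 had AGGAAG and 5 had CAGCTG in an annotated promoter. These genes had 23 promoters, of which 9 held AGGAAG and 5 held CAGCTG. Of all 32851 promoters of the same length, 35.4% held AGGAAG and 16.3% held CAGCTG. These are matches of letters only, and the printed promoters do not compare changed with unchanged genes.

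Among 30 angiogenic ligands and other receptors, of which 29 were tested, 4 rose in tumors labelled Cd276KO. Of all genes tested, 2.2% were called higher. Refitting the same counts, DESeq2 and limma voom called these 4 as well, among 938 and 1443 of all genes called higher. Fgf1, a fibroblast growth factor gene, had 113, 121 and 134 CPM in tumors labelled Cd276KO, against 25.4, 47.7 and 11.7 CPM in control tumors (log2 fold change 2.17, SE 0.44, edgeR adjusted p = 0.0432). Vegfc, the ligand of the receptor encoded by Flt4, had 62.2, 52.5 and 53.3 CPM in tumors labelled Cd276KO, against 29.8, 36.8 and 21.1 CPM in control tumors (0.99, SE 0.20, edgeR adjusted p = 0.0430). The groups did not overlap in either gene, which held in this direction for 14.2% of all genes tested. The Notch ligand gene Jag1 (0.90, SE 0.19) and Ephb4, a receptor gene of venous endothelium (0.75, SE 0.10), were the other 2 and were named after their values were seen. All 4 were also expressed in HM-1 cultures, at 20.5, 17.6, 196 and 73.3 CPM on average in cultures labelled Cd276KO and at 16.1, 16.6, 112 and 65.0 CPM in control cultures, for Fgf1, Vegfc, Jag1 and Ephb4 in that order. Like the 3 vessel genes, none of the 4 kept its call when a tumor labelled Cd276KO was left out. Vegfa itself had 265, 224 and 265 CPM in tumors labelled Cd276KO, against 218, 322 and 372 CPM in control tumors, and the groups overlapped.

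Between the tumor groups, 2.2% of all genes tested were called higher and 3.18% lower. Of 25 further endothelial genes, all tested, only Adgrf5 rose (log2 fold change 0.83, SE 0.12, edgeR adjusted p = 0.0253). HM-1 cells transcribed it too: it averaged 358 CPM in tumors labelled Cd276KO and 207 CPM in control tumors, against 551 CPM in cultures labelled Cd276KO and 319 CPM in control cultures. Among the other cell types, none of the tested genes was called in the lymphatic endothelial (5 of 6 tested), smooth muscle (8 of 8), fibroblast (10 of 10), lymphocyte (5 of 10), red cell and platelet (5 of 10), adipocyte (3 of 8) and epidermal keratinocyte (1 of 8) lists. Of 10 macrophage genes, Cd68 fell (-0.83, SE 0.16, edgeR adjusted p = 0.0380), and the 10 summed to 666, 1102 and 941 CPM in tumors labelled Cd276KO, against 1997, 1481 and 1216 CPM in control tumors. Flt1 and Eng are also transcribed by macrophages, and the part of macrophages in their levels was not tested. The red cell and platelet genes summed to 23.6, 21.4 and 30.8 CPM in tumors labelled Cd276KO, against 58.9, 34.6 and 130 CPM in control tumors, and platelets also carry Vwf. Keratinocyte genes summed to 228 CPM in control tumor 3 and to between 7.17 and 8.76 CPM in the other 5 tumors.

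In HM-1 cultures, which hold no vessels, 9 of the 34 vessel genes passed the filter on low counts and 25 did not. Between cultures labelled Cd276KO and control cultures 1 was called higher and 4 lower, where 11.6% and 16.1% of all genes tested were called. Pecam1 fell, at 1.77, 1.33 and 2.11 CPM in cultures labelled Cd276KO against 3.29, 3.47 and 3.68 CPM in control cultures (log2 fold change -0.96, SE 0.19, edgeR adjusted p = 0.0111). Without culture 1 labelled Cd276KO its edgeR adjusted p was 0.0521. Angpt2 fell, at 1.72, 1.33 and 1.5 CPM in cultures labelled Cd276KO against 3.63, 3.19 and 3.76 CPM in control cultures (-1.17, SE 0.16, edgeR adjusted p = 0.00278). Plvap fell by 1.63 (SE 0.27, edgeR adjusted p = 0.00584), and Apln fell as given above. Egfl7 rose by 0.82 (SE 0.24, edgeR adjusted p = 0.0459), a call lost without any one of the libraries labelled Cd276KO or without control culture 2 or 3 (edgeR adjusted p 0.104 to 0.157). All these levels but that of Apln were under 4 CPM. Flt1 was higher in every culture labelled Cd276KO than in every control culture (log2 fold change 0.62, SE 0.20, edgeR adjusted p = 0.0574). Without control culture 1 its log2 fold change was 0.41, and it was called (edgeR adjusted p = 9.56e-11).

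ID8 cells transcribed a partly different set of vessel genes. Of the 34 genes, 11 passed the filter, and 5 were called higher and 2 lower in cultures labelled Cd276KO, where 29.4% and 31.3% of all genes tested were called. Flt4 rose, at 141, 148 and 135 CPM in cultures labelled Cd276KO against 73.7, 75.7 and 78.3 CPM in control cultures (log2 fold change 0.97, SE 0.06, edgeR adjusted p = 1.55e-12). Esam rose, at 62.5, 60.3 and 64.7 CPM in cultures labelled Cd276KO against 27.2, 24.7 and 26.2 CPM in control cultures (1.34, SE 0.07, edgeR adjusted p = 5.39e-14). In ID8 cultures labelled Cd276KO both were above their level in any HM-1 tumor, and in ID8 control cultures this held for Flt4 but not for Esam. Flt1 rose too, at 69.5, 70.4 and 64.3 CPM in cultures labelled Cd276KO against 27.1, 27.3 and 25.6 CPM in control cultures (1.43, SE 0.07, edgeR adjusted p = 1.34e-14). Ptprb, a receptor phosphatase gene that acts on the angiopoietin receptor, rose by 0.73 (SE 0.11) and lost its call in the fit of 18 libraries (edgeR adjusted p = 0.208). Plvap rose by 2.22 (SE 0.35) while staying under 1 CPM. Notch3 fell, at 3.25, 2.53 and 2.54 CPM in cultures labelled Cd276KO against 10.6, 9.66 and 11 CPM in control cultures (-1.83, SE 0.13, edgeR adjusted p = 3.52e-11). Pecam1 fell by 2.36 (SE 0.35), at 0.261, 0.178 and 0.254 CPM in cultures labelled Cd276KO against 1.02, 1.20 and 1.60 CPM in control cultures. Cdh5, Kdr, Emcn, Cldn5, Erg, Sox17, Sox18, Esm1 and Abcc9 had no count in any ID8 library.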

How the data were processed

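RNA-seq of 18 mouse libraries was deposited by the authors as raw counts per gene for 54752 Ensembl genes, made with Trim Galore, STAR and HTSeq on GRCm38 (mm10), per the submitters' processing notes; the strand setting is not given in the sources used here. Symbols came from GENCODE M21. CPM used the library total and TPM the summed exon length. The members and lists were chosen with earlier results of these data known.

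Counts were tested with edgeR 4.0.16 (TMM, filterByExpr, robust quasi-likelihood, limma 3.58.1, R 4.3.3), fitting the libraries of each comparison alone, with Benjamini-Hochberg adjustment over all genes tested; the interaction used the 12 HM-1 libraries. The procedure was tested on simulated data. Alternatives were DESeq2 1.42.0, limma voom with sample weights, other scalings, no filter, a replicate block, 1 fit of 18 libraries, removal of striated muscle genes and leaving out each library. Named genes were those called, plus the highest and the most changed of each role group.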

Additional observations from a re-analysis of the deposited data

Results flagged for a closer look

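The effect of the Cd276KO label on Plvap differed between HM-1 tumors and HM-1 cultures by 4.32 on the log2 scale (edgeR interaction test, adjusted p = 0.000516), with a log2 fold change of 2.72 in tumors and -1.63 in cultures. All 3 tumors labelled Cd276KO were above all 3 control tumors, and all 3 cultures labelled Cd276KO were below all 3 control cultures. In culture Plvap was at 0.162% of its tumor level in libraries labelled Cd276KO and at 3.14% in controls. Cultures hold no vessels, and whether both effects concern the same cells was not tested.

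Plvap also had opposite directions in the cultures of the 2 lines. It was higher in every ID8 culture labelled Cd276KO than in every ID8 control culture (log2 fold change 2.22) and lower in every HM-1 culture labelled Cd276KO than in every HM-1 control culture (-1.63). The difference between the lines was not tested, and all these levels were under 2 CPM.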

How the results depend on the processing

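Between tumor groups, 2 vessel genes were called higher and 1 lower. DESeq2 called 4 higher and 2 lower, limma voom 4 and 2, and the fit of 18 libraries called 2 lower. Leaving out 1 library gave 0 to 2 higher and 0 to 1 lower. Between HM-1 culture groups, 1 higher became 2 by DESeq2, limma voom, no filter and the replicate block and 0 by upper-quartile scaling, and leaving out 1 library gave 0 to 2 higher and 2 to 4 lower. In the interaction test, 1 higher and 0 lower in edgeR became 2 and 1 by DESeq2, 3 and 2 by limma voom and 2 and 1 in the fit of 18 libraries, and leaving out 1 library gave 1 to 4 higher and 0 to 1 lower. Counts of the other comparisons stayed within 1.5 times.

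Replicate numbers did not pair the tumors: the correlations of same-numbered deviations were -0.65, 0.0082 and -0.093. With the replicate block, edgeR called 0 vessel genes higher and 0 lower between tumor groups, and 0 of all genes, against 826 without it.

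Flt1 in tumors against cultures labelled Cd276KO was -0.01 and became 0.16 with upper-quartile scaling (edgeR adjusted p = 0.0255), which moved the median of all genes there to 0.25, against 0.08 with TMM. Across all genes, DESeq2 called 938 higher and 1332 lower between tumor groups, limma voom 1443 and 1734 and the fit of 18 libraries 1846 and 2155, against 338 and 488. With 3 libraries a group and a wide spread among control tumors, many vessel genes had an SE above 0.4 on the log2 scale.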
